A study of Mus musculus with 2 samples.

Results

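Messenger RNA of the mouse duodenum was examined here at its longest annotated splice junctions, the exon joins left in RNA after removal of introns of at least 50000 bases. The deposited list held 347142 junctions. A junction entered where the list marked it as annotated (flag A at 1), where the second flag C was also 1 and where its intron reached that length, which gave 1446 junctions. The same flags held for 119108 junctions over shorter introns, the comparison used throughout. The meaning of flag C is not stated in what was used here.

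The tissue came from adult C57BL/6J mice aged 8 weeks, pooled from males and females that were littermates. No treatment or modified allele is named in the labels, and 2 libraries form a single group. The labels number the libraries as biological replicates 1 and 2. Both carry 1 donor entry but different tissue entries, and no label states that they came from separate animals. Each p-value below sets the difference between these libraries against counting error alone. Such a difference may be technical. Poly(A) RNA over 200 nucleotides, after removal of ribosomal RNA, was read as strand-specific pairs of 76 bases. The list gives the reads of the libraries as R1 and R2. No source used here ties R1 or R2 to a replicate number, so neither was assigned.

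An intron is removed by the spliceosome, which must bring together a 5′ splice site at the intron's start and a branch point and 3′ splice site at its end. In very long introns these sites are transcribed far apart in time, and the splice sites are recognised largely across the short exons beside them. The longest intron of a mammalian gene is often its first, where regulatory elements of transcription are frequent, and genes with many long introns are common in neurons, muscle and cell adhesion.

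The list is in mm9, for which no annotation was used here. Host genes were named by an exact match of chromosome, strand and intron length to GENCODE M21, without comparing positions. This gave 1 gene for 1401 of the 1446 junctions (96.9%), 2 or more genes for 11 and none for 34. On the opposite strand, 10 junctions (0.692%) found a match, which is the rate of matches by length alone. The 1401 named junctions lay in 992 genes, and 1380 of them were in protein-coding genes.

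Exon joins are shown next, 5′ to 3′ as read in RNA, to give the letters behind the read counts. They were taken from the 935 junctions with 1 matched gene whose shown bases are wholly coding, with 1 chromosome left out of the choice. Of these they are the 4 with the most reads, the 3 longest introns with at least 10 reads and 2 introns of Dpyd, the gene with the most members. Joins in untranslated regions, among them those of Raly and Myo6, and unmatched junctions are therefore not shown. Lower case marks the last 38 bases of the exon before the intron and capitals mark the first 38 bases of the exon after it. The sequences are from GENCODE M21 transcripts (GRCm38), while the intron positions given with them below are mm9.
App: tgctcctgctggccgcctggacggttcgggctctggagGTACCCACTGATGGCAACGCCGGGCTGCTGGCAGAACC
Igfbp7: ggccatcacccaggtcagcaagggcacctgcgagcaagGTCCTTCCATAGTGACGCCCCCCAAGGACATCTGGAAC
Chn2: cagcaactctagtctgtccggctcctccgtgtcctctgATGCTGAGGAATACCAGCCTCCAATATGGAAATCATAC
Eif2ak1: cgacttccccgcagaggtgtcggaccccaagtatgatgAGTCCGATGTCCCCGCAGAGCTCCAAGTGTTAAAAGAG
Arhgap6: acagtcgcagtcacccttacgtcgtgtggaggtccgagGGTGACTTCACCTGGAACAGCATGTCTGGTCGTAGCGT
Sdk1: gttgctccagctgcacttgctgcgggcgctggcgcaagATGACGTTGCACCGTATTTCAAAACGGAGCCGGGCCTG
Magi1: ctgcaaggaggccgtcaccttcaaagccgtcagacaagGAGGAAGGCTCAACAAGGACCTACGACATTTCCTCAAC
Dpyd intron 2: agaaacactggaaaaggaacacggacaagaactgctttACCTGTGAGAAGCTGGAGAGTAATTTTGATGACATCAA
Dpyd intron 12: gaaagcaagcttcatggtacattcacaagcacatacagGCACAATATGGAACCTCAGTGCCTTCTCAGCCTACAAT
Their GC content runs from 40.8% at Dpyd intron 2, which had 1 read, to 68.4% at App, which had the most reads. Between these ends GC and reads did not rank alike, with 51.3% and 2980 reads at Chn2 and 61.8% and 21 reads at Sdk1.

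Over all 1401 named junctions, the exon before the intron ended in the letters AG in 56.6% and in G in 84.2%, and the exon after it began with G in 46.1%. In 7923 shorter junctions of the same transcripts these shares were 56.5%, 80.1% and 46.7%. The joined 76 bases had a median GC of 53.9% in the long-intron junctions and 51.3% in the shorter ones. By intron position the sets were closer. The median was 57.9% in both for first introns, 52.6% and 51.3% for second introns, and 51.3% in both for later ones. Of the joins with a reading frame that could be followed, 409 fell between codons (39.6%), 441 after the first base of a codon (42.7%) and 182 after the second base (17.6%).

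Very long introns were mostly early introns of their transcripts. The first intron of the transcript held 690 of the 1401 named junctions (49.3%), the second held 249 (17.8%) and later introns held 462 (33.0%). Coding sequence flanked 1025 (73.2%), 292 lay in the 5′ untranslated region (20.8%), 10 in the 3′ untranslated region and 74 in non-coding transcripts. Among introns of principal transcripts in genes at 1 TPM or more (a level scaled to transcript length and library) in both libraries, the first intron made up 43.4% of those of at least 50 kb and 12.5% of the shorter ones. The introns had a median length of 72858 bases and ranged from 50017 to 479455 bases. Of them 1071 were of 50 to 100 kb, 321 of 100 to 200 kb and 54 of 200 kb and over.

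Host genes of the long introns had a lower median level than expressed genes at large. Of the 991 host genes found in the gene tables, 768 had 1 TPM or more in either library, and their median was 6.03 TPM in replicate 1 and 4.34 TPM in replicate 2. Over all 13084 genes with 1 TPM or more in either library it was 9.50 and 7.97 TPM. The other 223 host genes were under 1 TPM in both libraries. Across 1400 junctions, reads and the mean TPM of the host gene had a Spearman correlation of 0.480, as a description across junctions that share the libraries.

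Long-intron junctions carried fewer reads than shorter ones. Their median was 12 reads (quartiles 4 and 38.8) against 22 (5 and 101) for the shorter junctions, a ratio of 0.545. In R1 the medians were 7 and 12 reads, and in R2 they were 4 and 9. At least 100 reads were found over 161 long-intron junctions (11.1%) and over 25.2% of the shorter ones. The median fell from 13 reads at 50 to 100 kb to 9 at 100 to 200 kb and 5 at 200 kb and over, where no junction reached 100 reads. Among shorter introns it was 64 reads under 100 bases, 31 at 100 bases to 1 kb, 16 at 1 to 10 kb, 14 at 10 to 20 kb and 15 at 20 to 50 kb. Against shorter introns of at least 1 kb the ratio of medians was 0.75. Against the pooled shorter junctions of the same transcripts the gap was smaller. The 1401 named junctions had a median of 12 reads (quartiles 4 and 39), and 7923 shorter junctions of their transcripts had 14 (4 and 47). These sets differ in intron position, with 690 first introns among the long and 242 among the shorter. By position the medians of long and shorter junctions were 15 and 25.5 reads for first introns. They were 8 and 12 for second and 9 and 13 for later introns. No test was made between these sets, because junctions are not replicates and share genes.

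**Figure D1:**
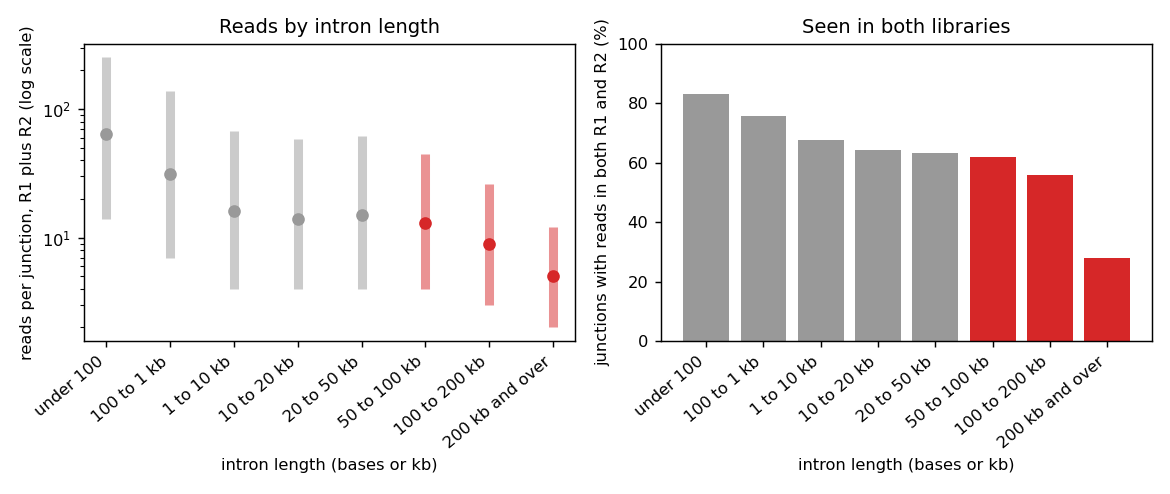
Left, median (point) and quartiles (bar) of reads per annotated junction, R1 plus R2, on a log scale by intron length. Right, percentage of the same junctions with reads in both R1 and R2. Red marks the introns of at least 50 kb, whose medians step down from 13 to 9 to 5 reads.

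Reads in both libraries were found for 857 of the 1446 junctions (59.3%, Wilson 95% interval 56.7 to 61.8), against 71.7% of shorter ones. Among shorter junctions of the same transcripts the share was 65.7%. R1 alone had reads for 431 (29.8%) and R2 alone for 158 (10.9%). For introns of 200 kb and over, 15 of 54 were seen in both (27.8%). At the same number of reads the gap was smaller: at 10 to 19 reads the share was 73.7% for long introns and 81.0% for shorter ones, at 20 to 49 reads 91.8% and 95.3%, and at 100 reads and over 99.4% and 99.5%. Across the 1446 junctions R1 and R2 had a Spearman correlation of 0.582, and across the shorter ones 0.779, both as descriptions across junctions. The list's own score, a number from 0 to 1 that is lower where both libraries hold many reads, had a median of 0.158 for long introns and 0.046 for shorter ones.

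Listed junctions of at least 50 kb without annotation had fewer reads at the median, over longer spans. Without annotation and with flag C at 0, 103600 listed junctions spanned at least 50 kb. Their median length was 168630 bases and their median 1 read, 82.2% had a single read and 5.85% were seen in both libraries. Without annotation and with flag C at 1 there were 6868, with a median of 141141 bases and also of 1 read, of which 19.1% were seen in both. Of the annotated 1446, with a median of 72858 bases, 8.64% had a single read. Summed reads ran the other way, with 111678 over the annotated junctions. Without annotation they were 382288 with flag C at 0 and 454887 with flag C at 1. The sets were not compared at matched length.

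Not every very long intron of an expressed gene was listed. Principal transcripts of genes at 1 TPM or more in both libraries held 685 introns of at least 50 kb. By length, 468 of them matched an annotated junction with flag C at 1 (68.3%, Wilson interval 64.7 to 71.7). With listed junctions of any flags the share was 70.1%. All other matches in this paragraph are to annotated junctions with flag C at 1. On the opposite strand 1 matched. The share was 77.7% at 10 to 20 kb (76.2 to 79.2), 76.4% at 20 to 50 kb (74.4 to 78.2), 69.3% at 50 to 100 kb (65.1 to 73.1), 68.8% at 100 to 200 kb (61.1 to 75.6) and 8 of 20 at 200 kb and over (40%, 21.9 to 61.3). By the mean level of the host gene, 58.8% of introns of at least 50 kb were listed under 5 TPM, 79.4% at 5 to 20 TPM, 76.5% at 20 to 100 TPM and 10 of 11 above. At 10 to 50 kb the same classes gave 66.6%, 81.6%, 85.5% and 90%. An intron whose length changed between the 2 builds could not match, and how many of those missing are of this kind was not tested. Intervals here cover counting error only.

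The 10 junctions with the most reads held 42.6% of all 111678 reads over the long introns, and App alone held 15.7%. App encodes the amyloid precursor protein, a membrane protein of many tissues. Its first intron, of 52804 bases at chr16:85120943-85173746 on the minus strand, had 3890 reads in R1 and 13592 in R2. The other 14 introns of the same transcript had 35 to 1274 reads. The first junction of App thus stood above every other junction of its transcript in both libraries.

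Igfbp7, which encodes a secreted binding protein of the insulin-like growth factor family, followed with 3792 reads in R1 and 4631 in R2. This is its first intron, of 51868 bases at chr5:77784697-77836564 on the minus strand. The remaining 3 introns of its transcript had 40 to 294 reads. Atp8b1, a phospholipid flippase of apical membranes, had 2433 and 1888 reads. Raly, an RNA-binding protein of the heterogeneous nuclear ribonucleoprotein family, had 973 and 2883.

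Chn2, a GTPase-activating protein for Rac, had 1155 reads in R1 and 1825 in R2 over an intron of 133308 bases at chr6:53990150-54123457 on the plus strand. Its 10 introns under 50 kb had a median of 24.5 reads, with 971 over the second intron. Myo6, the minus-end-directed myosin that is found in the brush border, had 1269 and 1591 reads over its first intron of 52386 bases. The other 31 introns of that transcript ranged from 0 to 286 reads with a median of 2, counting 9 without a matched junction at 0. Eif2ak1, the haem-regulated kinase of the translation factor eIF2, had 817 and 1862 reads over its first intron of 53854 bases at chr5:144578878-144632731, and the other 13 introns had 1 to 105. In each of these transcripts the long first junction held more reads than any other junction.

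Msra, a methionine sulfoxide reductase that repairs oxidised proteins, had 957 reads in R1 and 810 in R2 over its intron 6, of 126954 bases. Mcu, the pore of the mitochondrial calcium uniporter, had 1313 and 330 reads over its first intron of 125367 bases. In Mcu the second intron had more, with 483 reads in R1 and 2702 in R2, so the first and second junctions of 1 transcript differed in opposite directions between the libraries. Barx2, a homeobox transcription factor, had 185 and 1327 reads. Of the 10 junctions with the most reads, 9 were first introns and the exception was Msra.

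**Figure D2:**
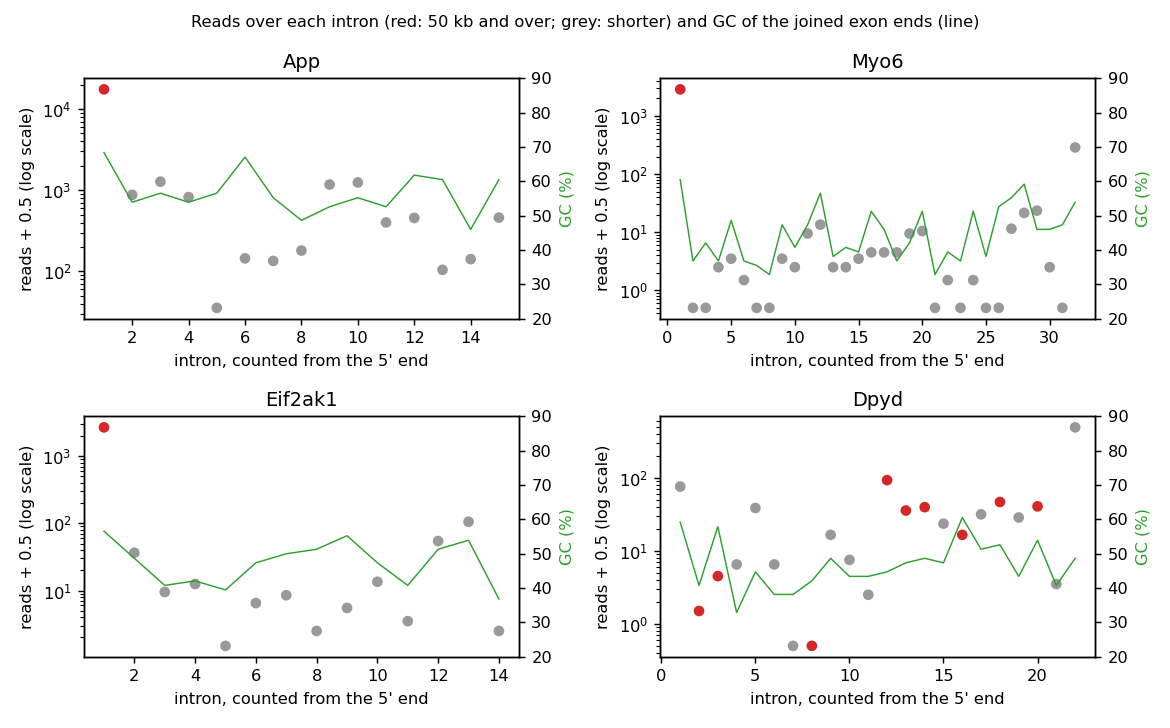
Reads plus 0.5 on a log scale (left axis) over each intron of 1 transcript of App, Myo6, Eif2ak1 and Dpyd, in order from the 5′ end, with introns of at least 50 kb in red and shorter ones in grey. The green line (right axis) is the GC percentage of the 76 bases around each join. The long first introns of App, Myo6 and Eif2ak1 lie above all others of their transcripts, while those of Dpyd lie between 0 and 92 reads. Introns without a matched junction are drawn at 0 reads.

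Within a gene, the long junction did not have a set place relative to the others. For 1118 junctions whose host gene had at least 3 other listed junctions, the median ratio of its reads to the median of the others was 1.14, with quartiles of 0.401 and 3. From R1 alone it was 1.20 and from R2 alone 0.833, so the libraries fell on different sides of 1. Counting only other junctions with at least 10 reads it was 0.521, and 0.973 where the long junction also had at least 10. First introns had a median ratio of 1.5, second introns 0.714 and later ones 0.944. Shorter junctions of the same genes showed the same order, with 1.80 for 108 first introns, 0.80 for second and 1 for later ones. The order of second and later introns did not hold for long junctions in principal transcripts, with 2.075 for first, 1.275 for second and 1.127 for later ones. In principal transcripts the median ratio was 1.33 (507 junctions), and outside them 0.923 (611). Against the listed neighbouring junction upstream, where that intron was under 50 kb, the long junction had fewer reads in 191 of 365 pairs and more in 162. Against the one downstream it had fewer in 346 of 768 pairs and more in 392. A further 137 upstream and 284 downstream neighbours under 50 kb matched no listed junction. Counted at 0 reads, they would make the long junction the higher one in 299 upstream and 676 downstream pairs, so the upstream direction depends on leaving them out. The ratios above likewise rest on listed junctions only.

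Reads also moved with the base composition of the joined exons. Long-intron junctions with a GC under 40% had a median of 3.5 reads, those at 40 to 50% had 6, at 50 to 60% 12, at 60 to 70% 27 and at 70% and over 23. Shorter junctions of the same transcripts had 3, 7, 19, 41 and 43 reads in these classes. The first introns among the long-intron junctions had a median GC of 57.9%, second introns 52.6% and later ones 51.3%, with median reads of 15, 8 and 9. The part of GC in the read counts by intron position was not tested.

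**Figure D3:**
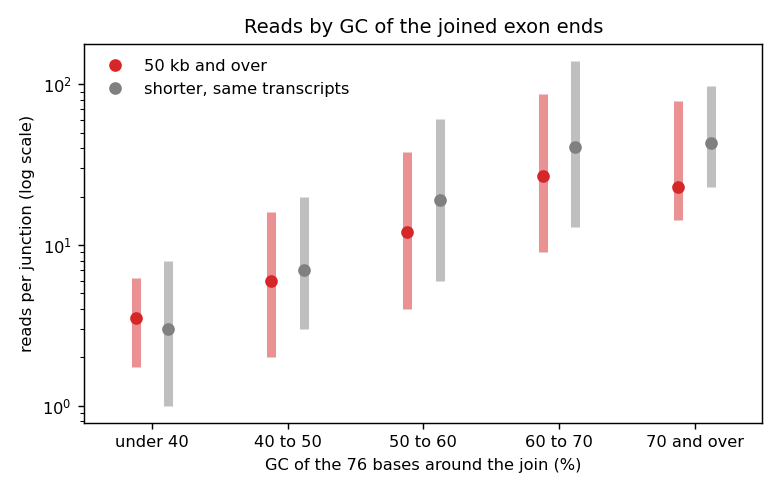
Median (point) and quartiles (bar) of reads per junction on a log scale, by GC percentage of the 76 bases around the exon join, for introns of at least 50 kb (red) and shorter introns of the same transcripts (grey). Red medians run from 3.5 reads under 40% to 27 at 60 to 70%.

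R1 and R2 were compared junction by junction, by an exact binomial test (two-sided) on the share of R1 expected from the totals, with Benjamini-Hochberg adjustment over the 78455 annotated junctions with at least 10 reads. A junction is called where the adjusted p was under 0.05 and the scaled ratio at least 2-fold. Over all tested junctions 38.3% were called, 23.2% higher in R1 and 15% higher in R2. Of the 791 long-intron junctions tested, 264 were higher in R1 (33.4%) and 99 higher in R2 (12.5%). Their median log2 ratio of R2 over R1 was -0.57, and that of the shorter junctions was -0.17. The long introns thus lay above the share over all tested junctions in R1 and below it in R2. The lower share in R2 did not hold at every read number, as given below.

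That lean was shared by other junctions of the same transcripts and grew with length among shorter introns. Of 4610 tested shorter junctions of the same transcripts, 29.9% were higher in R1 and 10.2% higher in R2, with a median log2 ratio of -0.49. By length, the share higher in R1 was 19.5% under 100 bases, 24.8% at 1 to 10 kb, 29.9% at 20 to 50 kb, 32.8% at 50 to 100 kb, 33.1% at 100 to 200 kb and 10 of 19 at 200 kb and over. It also differed by read number, from 38.4% at 10 to 19 reads to 21.7% at 100 reads and over among long introns, against 23.9% and 17.8% among shorter ones. Of 228 junctions called higher in R1 with other junctions of the host to compare, the summed host reads leaned to R1 in 187 and by 2-fold in 99. Of 80 called higher in R2, the host leaned to R2 in 40, and by 2-fold in 10.

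**Figure D4:**
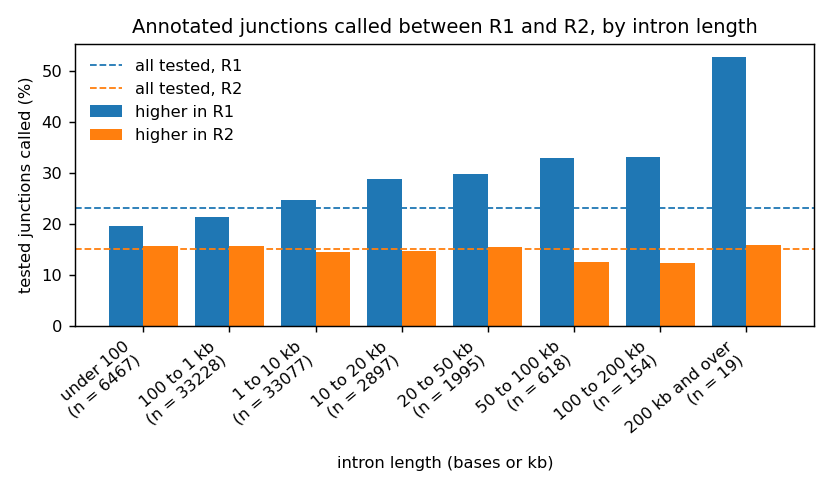
Percentage of tested annotated junctions called higher in R1 (blue) or R2 (orange) by intron length, with the number tested under each class. Dashed lines give the shares over all tested junctions, 23.2% and 15%. The share higher in R1 steps up with length and reaches 10 of 19 junctions at 200 kb and over.

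Summed over the long introns, the balance between the libraries rested on App. The long introns held 51828 reads in R1 and 59850 in R2, which is 0.344% and 0.414% of reads over annotated junctions, of which R1 had 15080457 and R2 14464890. Without App the sums were 47938 and 46258, or 0.318% and 0.320%. Sums were thus nearly equal where single junctions more often leaned to R1.

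Among the junctions higher in R1, Mcu (above) had a log2 ratio of -1.93 and an adjusted p of 4.549e-128 by the exact binomial test. Col18a1, a collagen of basement membranes, had 478 reads in R1 and 30 in R2 over its second intron of 69754 bases. Fam107b had 225 and 14 reads. Mbnl1, a regulator of alternative splicing, had 453 and 109. All were far from equality, and in Col18a1 the summed reads of the host's other junctions had a log2 ratio of -0.31 against -3.91 for the long intron. In Mbnl1 the other junctions had -1.23 against -1.99.

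Celf1, an RNA-binding regulator of splicing and mRNA decay, had 457 reads in R1 and 122 in R2. Foxp1, a forkhead transcription factor, had 138 and 15. Both were first introns. Tpd52l1 had 107 reads in R1 and none in R2, and Ncald, a neuronal calcium sensor, had 75 and none over 1 of its 5 long-intron junctions. Plcb4, a phospholipase C, had 120 and 14 reads over the most read of its 3 long introns, and all 3 were called higher in R1. A count of 0 in R2 allows up to 3 reads. The summed reads of the host's other junctions also leaned to R1 in Celf1, Foxp1, Ncald and Plcb4. Their log2 ratios were -0.57, -1.45, -1.235 and -1.84, that of Ncald from 4 junctions with a median of 1.5 reads.

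Among the junctions higher in R2, App had a log2 ratio of 1.86, Barx2 2.90 and Raly 1.63, with Eif2ak1 at 1.25. Itpk1, an inositol phosphate kinase, had 165 reads in R1 and 968 in R2 over its second intron. Slc16a10, a transporter of aromatic amino acids, had 133 and 523. Prkcz, the atypical protein kinase C of apical polarity, had 25 and 247. In these 3 genes the summed reads of the host's other junctions leaned the same way, with log2 ratios of 1.16, 2.13 and 1.44.

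Tpd52 had 75 reads in R1 and 307 in R2, Inpp5a, an inositol phosphate phosphatase, had 248 and 484, and Iqgap2, a scaffold of the actin cytoskeleton, had 92 and 244. In App the summed reads of the host's other junctions had a log2 ratio of 0.17 and in Iqgap2 of -0.32, near or below equality. Their long first introns were higher in R2. In Mcu, called higher in R1, the summed reads of the other junctions had a log2 ratio of 1.10. Of its transcript, only intron 2 leaned to R2 (483 and 2702 reads), and introns 3 to 7 had more reads in R1.

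**Figure D5:**
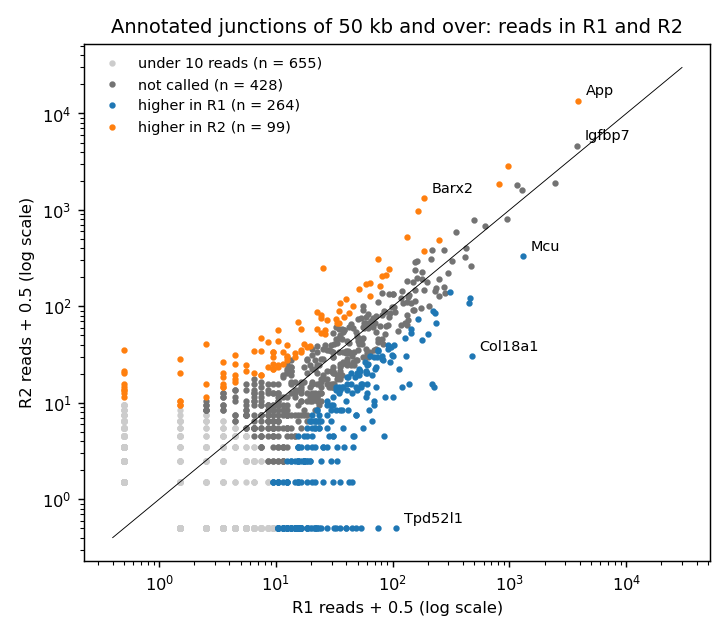
Reads plus 0.5 in R1 and R2 for each of the 1446 annotated junctions over introns of at least 50 kb, both axes logarithmic, with the line of equal reads. Blue and orange mark the 264 and 99 junctions called higher in R1 and R2, dark grey those tested and not called, light grey those under 10 reads.

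The 10 longest introns carried few reads. The longest, of 479455 bases at chr13:110051140-110530594, matched no gene and had 1 read in R1 and 10 in R2. A junction of 298047 bases with the same end had 1 read. Arhgap6, a GTPase-activating protein, had 10 reads in R1 and none in R2 over 423386 bases at chrX:165234744-165658129. Kcnq5, a potassium channel, had 8 and none over 367566 bases. Magi1, a scaffold of tight junctions, had 12 and none over 339689 bases at chr6:93893315-94233003.

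Sdk1, a cell adhesion molecule, had 1 read in R1 and 20 in R2 over 340200 bases at chr5:141718047-142058246. The summed reads of its other junctions had a log2 ratio of -0.49. Smyd3, a methyltransferase, had 30 and 21 reads over its intron 5 of 310880 bases, the most among the 10 longest, and was not called. Csmd1, Fgf13 and Pcdh9 had 1, 2 and 1 reads. Of the 10 longest, only the Smyd3, Sdk1 and unmatched 479455-base junctions had reads in both libraries.

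The list's score did not follow the read number alone. App, Igfbp7, Atp8b1, Raly and Chn2 were among the 32 junctions with a score of 0. At the other end of the junctions with at least 10 reads, Abl2, a tyrosine kinase, had 22 reads in R1 and none in R2 with a score of 0.828, the same score as a junction with 1 read. E130308A19Rik (18 and none) and Rnaseh2b (10 and none) also had 0.828. Arhgef28 (5 and 24) and Sbf2 (none and 21) had 0.417.

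Many genes held several junctions over very long introns, and junctions that share an end were counted separately. Of the 992 host genes, 723 had 1 such junction, 183 had 2 and 86 had 3 or more. Dpyd, which encodes dihydropyrimidine dehydrogenase, the first enzyme of pyrimidine breakdown, had the most with 8. They ranged from 52256 to 97202 bases and from 1 to 92 reads. Intron 2 had 0 reads in R1 and 1 in R2, intron 3 had 0 and 4, intron 12 had 34 and 58, and intron 13 had 4 and 31. Introns 14, 16, 18 and 20 had 12 and 27, 7 and 9, 31 and 15, and 24 and 16 reads. Introns 13 and 14 were called higher in R2. A further intron of 85826 bases, the eighth of the same transcript, matched no annotated junction with flag C at 1. A junction with other flags, or a length or distance changed between builds, would not have matched. The last intron, of 4198 bases, had the most reads of the transcript with 487. The long introns of Dpyd from intron 12 on had 16 to 92 reads, and introns 2 and 3 had 1 and 4.

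Rbms3, an RNA-binding protein, had 7 long-intron junctions with 1 to 28 reads, of which 3 were called, all higher in R1. Those of 141611 and 141608 bases share 1 end. Slc24a3, a sodium, potassium and calcium exchanger, had 4, and all 4 were higher in R1, with 44 and 0, 29 and 2, 42 and 1, and 30 and 9 reads. Lpp, a focal adhesion protein of smooth muscle, had 5 with 40 to 94 reads, 2 of them higher in R1. Ptprn2, a receptor phosphatase-like protein of secretory granules, had 6, of which 4 were higher in R1 and 1 in R2 (3 and 18 reads). In these genes the called junctions leaned to R1, apart from the 1 in Ptprn2.

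Slc39a11, a zinc transporter, had 6 long-intron junctions from 8 to 731 reads, and the most read had 470 reads in R1 and 261 in R2. Gmds, an enzyme in the synthesis of the fucose donor GDP-fucose, had 4. They were led by its first intron with 427 and 398 reads, and none was called. Cdh13, an atypical cadherin, had 6 with 5 to 44 reads, none called. Fars2, a mitochondrial phenylalanyl-tRNA synthetase, had 4, of which the first (49 and 13 reads) was higher in R1 and 2 later ones (19 and 38, 32 and 73) higher in R2. Junctions of a single gene could thus be called in opposite directions, as in Mcu.

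Genes of 8 lists were counted against the 33.4% and 12.5% of all tested long-intron junctions. Of the 24 smooth muscle, interstitial and contractile genes, 13 were hosts, with 22 junctions and a median of 30 reads. In this list 10 of 16 tested were higher in R1 and 1 in R2, with a median log2 ratio of -1.60. Its most read member outside Lpp was Pde3a, a phosphodiesterase, with 81 and 28 reads. Of the 24 neuron and glia genes, 11 were hosts, with 17 junctions at a median of 5 reads. Of these 17.6% were seen in both libraries, and 4 of 5 tested were higher in R1 and none in R2. Rbfox1, a neuronal splicing factor, had 28 and 4 reads, Tenm3, a teneurin, 15 and 1, and Ptprd, a receptor phosphatase that was not called, 3 and 11.

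Transcription factors gave 22 hosts among 38 genes and 43 junctions at a median of 8 reads, with 8 of 20 tested higher in R1 and none in R2. Beside Foxp1 they held Tcf7l2, the effector of Wnt signalling in the crypt, with 61 and 59 reads, and Hnf4g, a nuclear receptor of enterocytes, with 74 and 35. Hnf4g was called higher in R1 and Tcf7l2 was not called. Cell adhesion and polarity genes gave 45 junctions in 15 hosts of 28 genes, with 11 of 29 tested higher in R1 and 2 in R2. RNA-binding and ubiquitin pathway genes gave 24 junctions in 10 hosts of 22, with 5 of 11 higher in R1 and 1 in R2, among them Rbms1 (100 and 11 reads, higher in R1) and Rbfox2 (20 and 22, not called).

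Signalling enzymes gave 35 junctions in 26 hosts of 36 genes, with 6 of 18 higher in R1 and 1 in R2. Their most read members were the receptor phosphatase Ptprj (160 and 292 reads) and the kinase Stk39 (273 and 157), neither called, and the calcineurin subunit Ppp3ca (64 and 174), higher in R2. Enterocyte metabolism and transport genes gave 32 junctions in 12 hosts of 29, of which 78.1% were seen in both libraries, with 2 of 20 higher in R1 and 3 in R2. The median log2 ratio in this list was -0.30. Macrod1, a mitochondrial ADP-ribose hydrolase, had 93 and 134 reads and was not called. Large genes at fragile sites gave 29 junctions in 11 hosts of 24, with 4 of 16 higher in R1 and 3 in R2, and Gphn, the gephyrin scaffold, had 35 and 25 reads. Not every listed gene held an annotated intron of at least 50 kb and so could be a host. The number was 18 for smooth muscle, interstitial and contractile genes, 24 for neuron and glia genes and 32 for transcription factors. It was 19 for cell adhesion and polarity genes, 16 for RNA-binding and ubiquitin pathway genes and 33 for signalling enzymes. Enterocyte genes had 16 and fragile-site genes 22. The lists share some genes, and fewer cells of a type cannot be told apart from less RNA per cell in bulk tissue.

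At the length limit, the members just inside were Rabgap1l, of 50017 bases with 1 read in R1 and none in R2, and Il34, of 50083 bases with 47 and 18. Just outside lay Xxylt1, of 49979 bases with 36 and 81, and Desi2, of 49954 bases with none and 24.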

How the data were processed

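Junctions came from 1 deposited list for the whole series in mm9, made by the authors from both libraries, with the aligner not given in the sources used here. It holds deposited read counts per junction, not normalised, as R1, R2 and their sum, and a deposited score from 0 to 1 whose name is not given. A ninth column of unknown meaning was not used. Gene tables, quantified by the authors against GENCODE M4 on mm10 per the text files beside them, hold deposited expected counts, which entered no test here, and deposited TPM values, scaled by the authors to length and library.

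Intron length is the deposited end minus the deposited start, which counts from 0, and printed starts are 1 higher. Other junctions of a host gene were matched by length and distance from the long intron, so no coordinates were converted. R1 and R2 were scaled by their reads over annotated junctions with flag C at 1, and log2 ratios had 0.5 added to both counts, which understates ratios of junctions with few reads. Junctions needed 10 reads for the test, an adjusted p under 0.05 and a 2-fold ratio. Reads have no molecular identifiers, so intervals, floors and p-values cover counting error only. On simulated data with only a small part of the junctions changed, the calls found most 4-fold changes at 50 reads and over. They missed most at junctions with fewer reads. In these data 53.6% of tested junctions had an adjusted p under 0.05 by the binomial test, so the adjustment is less strict here. The share of changes missed here is therefore not known, and a junction with few reads that was not called may still differ. Named genes are the 10 most read junctions, the 10 longest, the 5 lowest and 5 highest scores with 10 reads, the 10 lowest adjusted p in each direction, 2 on each side of the length limit, genes with 3 or more members and the 3 most read of each list, of which some are summarised and 1 is not reported here. The members and lists were chosen with earlier results of these data known. Alternatives changed the length limit, read minimum, scaling and library used. Python 3.11.15, numpy 2.4.6, pandas 2.3.3, scipy 1.17.1 and matplotlib 3.10.9 were used.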

Additional observations from a re-analysis of the deposited data

How the results depend on the processing

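The long-intron junctions had a lower median read count than shorter ones under every alternative run. The ratio of medians was 0.364 with a limit of 100000 bases, 0.75 against shorter introns of at least 1000 bases, 0.609 with a limit of 20000 bases, and 0.444 to 0.583 from 1 library alone. The share seen in both libraries was 62.1%, 51.7% and 88.7% with a limit of 20000 bases, of 100000 bases and with at least 10 reads. The count of called junctions was 1267 and 83 at these length limits, whose sets differ in size by construction, and stayed within 1.5 times 363 under the scalings and with no fold limit. Scaling by the median ratio of junctions with at least 20 reads gave 245 higher in R1 and 113 in R2 among the long introns, and 16489 and 13495 over all. The share matched to 1 gene was 0.692% on the opposite strand. The ratio to the host's other junctions was 0.521 with host junctions of at least 10 reads, 0.833 to 1.20 from 1 library alone, and, in alternatives chosen after seeing the data, 0.973 with that minimum on both sides and 1.20 within the same transcript. Also added after seeing the data, removing App moved the ratio of read shares, R2 over R1, from 1.20 to 1.01, and testing with no minimum of reads gave 405 calls. The cause of these shifts was not tested. No paired analysis was possible because there is only 1 group. Junctions with few reads limit most comparisons above 200 kb.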
